A study of Mus musculus with 12 samples.

Results

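The CCT chaperonin, also called TRiC, is a cytosolic protein-folding machine assembled from 8 related subunits, encoded in the mouse by Tcp1, Cct2, Cct3, Cct4, Cct5, Cct6a, Cct7 and Cct8. The rows of these 8 symbols were taken from a table of 78298 genes. All 8 genes were counted in every library and passed the filter on low counts. The members were chosen by gene symbol, but the family was put forward after tumour and normal levels of these same libraries had been seen, so its tumour and normal levels are a description and lend no support to anything else.

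RNA was sequenced from mouse lung in 4 groups of 3 libraries: normal tissue under VEH, normal tissue under HDM, tumours under VEH and tumours under HDM. HDM is house dust mite, given chronically according to the series, and VEH is the other treatment label, which is not spelled out. The tumours are macroscopic LLC tumours cut out of the lung by hand, and the normal tissue is lung lying next to tumours, so the normal groups also come from tumour-bearing lungs. The labels give no strain, age, sex or allele, and nothing in them says that the 3 libraries of a group come from separate mice, so p-values measure only the spread between these libraries.

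The 8 CCT subunits sit in stacked rings in a fixed order, in which Tcp1 is followed by Cct3, Cct6a, Cct8, Cct7, Cct5, Cct2 and Cct4 before the ring closes on Tcp1 again. Each ring uses ATP to close a chamber around a newly made protein. Actin, tubulin and many proteins built as beta-propellers, such as the cell cycle regulator Cdc20, need this chamber to fold, so the complex is best known for supplying dividing and moving cells with cytoskeleton. Prefoldin hands unfolded actin and tubulin to the complex, phosducin-like proteins work with it as cofactors, and tubulin folding cofactors take over the tubulin it releases.

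The promoters of 3 subunits are shown because these subunits mark the ends of the range described below: Cct8 had the largest tumour to normal ratio under HDM, Cct5 the largest under VEH, and Cct7 the smallest under both. Each sequence is the 250 bases before an annotated start, written 5′ to 3′ along the gene, from RefSeq (table build GRCm38.p6). RefSeq gives Cct5 2 starts, and the upstream one is shown because the window of the other, whose 250 bases lie at chr15:31601686-31601935 on GRCm39, holds none of the 6 motifs searched. Each matched GRCm39 exactly at 1 place: Cct8 at chr16:87292758-87293007 on the minus strand, Cct5 at chr15:31601993-31602242 on the minus strand and Cct7 at chr6:85428237-85428486 on the plus strand. Capitals mark letters found by the motif search described after the sequences.
Cct8: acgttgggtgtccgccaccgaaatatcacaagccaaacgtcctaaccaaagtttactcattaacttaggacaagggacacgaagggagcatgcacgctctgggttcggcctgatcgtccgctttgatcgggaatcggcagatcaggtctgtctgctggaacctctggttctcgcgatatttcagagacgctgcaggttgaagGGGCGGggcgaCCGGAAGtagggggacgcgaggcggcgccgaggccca
Cct5: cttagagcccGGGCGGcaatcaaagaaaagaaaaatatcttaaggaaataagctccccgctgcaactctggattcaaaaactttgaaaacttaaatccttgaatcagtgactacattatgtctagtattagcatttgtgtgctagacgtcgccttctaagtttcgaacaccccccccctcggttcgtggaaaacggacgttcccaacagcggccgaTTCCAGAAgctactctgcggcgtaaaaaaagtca
Cct7: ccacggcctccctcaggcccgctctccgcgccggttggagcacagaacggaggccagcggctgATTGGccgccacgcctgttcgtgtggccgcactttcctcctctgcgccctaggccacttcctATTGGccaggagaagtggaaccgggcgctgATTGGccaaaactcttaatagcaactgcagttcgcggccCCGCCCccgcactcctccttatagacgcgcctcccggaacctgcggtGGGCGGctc

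The search covered both strands of each window, which runs from 250 bases before to 50 after the start, and RefSeq windows matched 7 of the 8 subunits, 9 windows in all. The GC box, bound by Sp factors and searched as GGGCGG, lay in 8 of the 9 windows (all but that second one of Cct5), against 35.66% of the 32851 windows in the whole table. The CCAAT box, bound by NF-Y, lay in 4 of the 9 windows (37.41% of all windows), with 3 copies in Cct7 and none in Cct8 or Cct5. The ETS letters CCGGAAG lay in 3 of the 9 windows, of Cct2, Cct8 and Tcp1 (8.86% of all windows), and in Cct8 they began 37 bases before the start. Facing units of a heat shock element, searched as GAANNTTC or TTCNNGAA, lay in 3 of the 9, of Cct2, Cct5 and Cct6a (15.06% of all windows). The E-box bound by Myc with its partner Max, searched as CACGTG, was in none of the subunits' windows and in 7.15% of all windows. The core of the Staf site bound by Zfp143, searched as ACTACAA, was likewise in none of them and in 3.24% of all windows. These are matches of letters only.

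On GRCm39, GENCODE M39 places each subunit gene on its own chromosome. Tcp1 (ENSMUSG00000068039) lies at chr17:13134588-13163066, Cct3 (ENSMUSG00000001416) at chr3:88204289-88230423, Cct6a (ENSMUSG00000029447) at chr5:129864049-129875406, Cct7 (ENSMUSG00000030007) at chr6:85428439-85445708 and Cct4 (ENSMUSG00000007739) at chr11:22940379-22956236, all on the plus strand. Cct8 (ENSMUSG00000025613) lies at chr16:87279168-87292801, Cct5 (ENSMUSG00000022234) at chr15:31588834-31601959 and Cct2 (ENSMUSG00000034024) at chr10:116886897-116899744, on the minus strand. All but Cct2 share exon bases with a gene on the opposite strand, and whether the counting used strand is not given in the sources used here, so reads from such partners cannot be told apart. Pseudogenes similar to a subunit numbered 11 and took reads equal to at most 0.0331% of that subunit's count.

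Between 20608682 and 32765364 reads per library were counted on genes. The library names carry 6 prefixes, each joining 1 normal and 1 tumour library, and 2 of these prefixes sit on libraries of unlike treatment. One is shared by replicate 2 of normal VEH and replicate 2 of tumour HDM, and the other by replicate 3 of normal HDM and replicate 3 of tumour VEH. Groups follow the labels here, and results are also given without these 4 libraries. Normal VEH replicate 2 stood apart from the other normal libraries. Its 12 cell cycle genes summed to 349 CPM (counts-per-million of the library size scaled by TMM), against 147 to 169 CPM in the other 5, and its 6 endothelial markers to 1059 CPM, against 2050 to 2374. Tumour VEH replicate 2 held more of the lung markers and less of the fibroblast markers than the other tumours: 8558 CPM of alveolar markers against 98.9 to 2482, 19655 CPM of airway markers against 19.3 to 6225, and 4612 CPM of fibroblast markers against 10665 to 13311. Lung markers were present in the tissue labelled normal, where 7 alveolar markers summed to between 17371 and 42655 CPM, against 98.9 to 8558 CPM in tumours.

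All 8 CCT subunit transcripts were higher in tumours than in normal tissue, under VEH and under HDM, and for each subunit all 6 tumour libraries lay above all 6 normal libraries. The 8 together took 0.125% ± 0.0103 of all counts (SD, n = 3) in normal tissue under VEH and 0.292% ± 0.0101 in tumours under VEH. Under HDM these shares were 0.106% ± 0.00326 and 0.280% ± 0.0144. By edgeR's quasi-likelihood test, with Benjamini-Hochberg adjusted p below 0.05 as the threshold, 8 of 8 passed as higher in each comparison. Of all 22190 genes tested, 38.9% passed under VEH (18.2% as higher, 20.6% as lower) and 51.9% under HDM (23% as higher, 28.9% as lower). Tumour libraries lay wholly above normal ones for 23.9% of all genes under VEH and 29.6% under HDM. Since the family was put forward with these contrasts in view, nothing is read from its count. The 8 subunits' median log2 fold change was 1.15 under VEH and 1.26 under HDM, beside medians over all genes of -0.11 and -0.08.

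**Figure D1:**
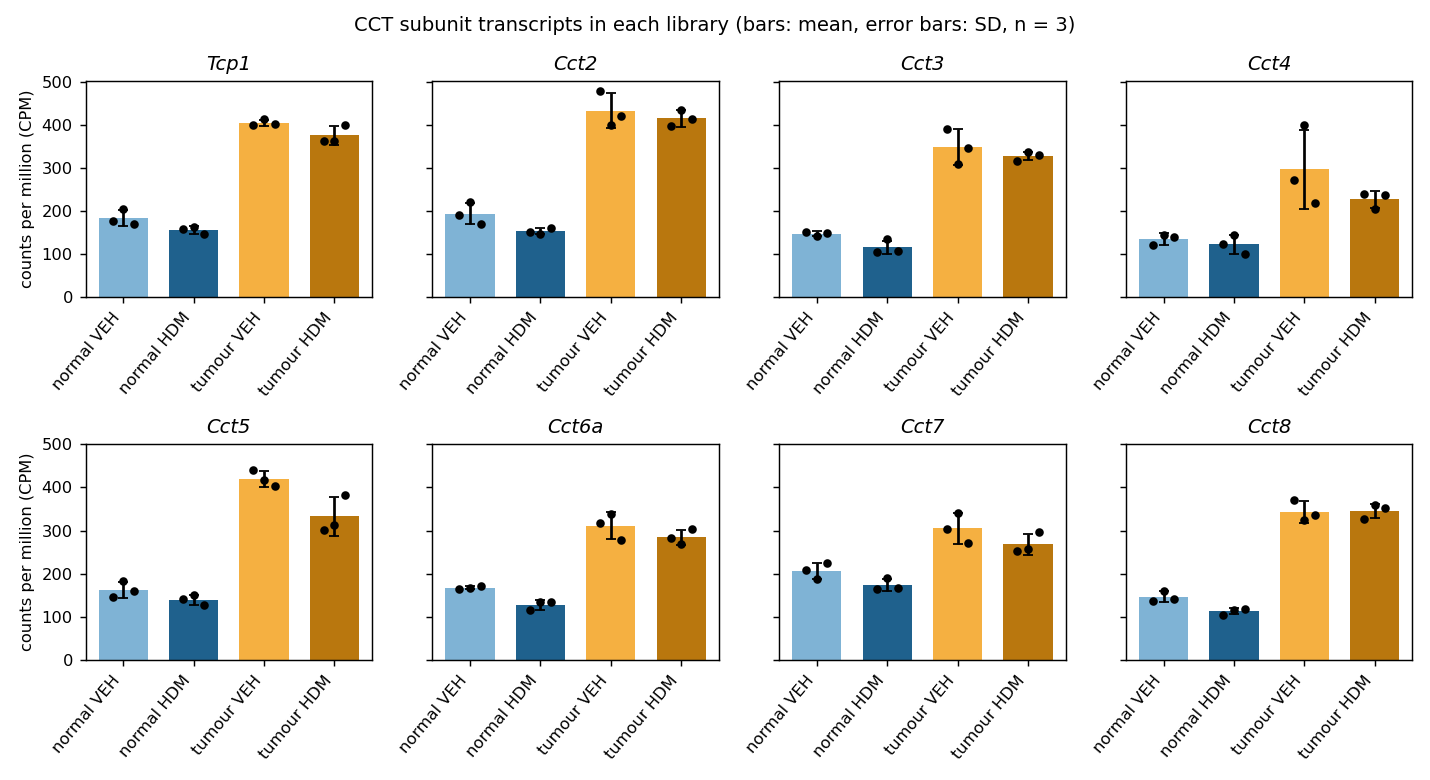
Level of each CCT subunit transcript in CPM (vertical axis, from 0) in the 4 groups; points are libraries, bars means and error bars SD (n = 3). In each panel all 6 tumour points lie above all 6 normal points, closest for Cct7, where the highest normal library is at 225 CPM and the lowest tumour library at 252 CPM.

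Cct8, the theta subunit, moved the most under HDM. In normal tissue it stood at 137, 161 and 141 CPM under VEH and at 105, 116 and 119 CPM under HDM. In tumours it stood at 372, 324 and 336 CPM under VEH and at 326, 358 and 352 CPM under HDM. The lowest tumour library was thus above the highest normal library by a wide margin, and the tumour groups overlapped each other. Its tumour to normal log2 fold change was 1.23 ± 0.12 (SE) under VEH and 1.61 ± 0.12 under HDM. An antisense RNA gene that shares 311 exon bases with Cct8, B130034C11Rik, had 4198 counts over the 12 libraries against 75430 for Cct8 and log2 fold changes of 1.73 and 1.88. Usp16, also on the opposite strand, shares 588 exon bases with Cct8 and had 10837 counts. Its log2 fold changes were 0.09 ± 0.21 (SE) under VEH and 0.57 ± 0.21 under HDM.

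Cct5, the epsilon subunit, in which an inherited sensory neuropathy has been mapped in people, moved the most under VEH. Normal libraries held 146, 182 and 161 CPM under VEH and 141, 150 and 127 CPM under HDM. Tumour libraries held 439, 417 and 403 CPM under VEH and 301, 314 and 383 CPM under HDM, so the tumours under HDM all lay below those under VEH. The tumour to normal log2 fold change was 1.37 ± 0.14 (SE) under VEH and 1.26 ± 0.14 under HDM. Its opposite-strand partner Cmbl, which shares 439 exon bases and had 5426 counts against 83452, went the other way, with log2 fold changes of -1.40 and -2.95.

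Cct7, the eta subunit, had the smallest difference of the 8. Its normal libraries were at 208, 188 and 225 CPM under VEH and at 165, 190 and 167 CPM under HDM. Its tumour libraries were at 303, 342 and 270 CPM under VEH and at 252, 257 and 297 CPM under HDM. The gap between the closest normal and tumour libraries was small beside the gaps of the other subunits. The log2 fold change was 0.56 ± 0.14 (SE) under VEH and 0.63 ± 0.14 under HDM, which is 1.47 and 1.54 times. Pradc1, which shares 994 exon bases with Cct7, had 3387 counts against 75603. Its log2 fold changes were -0.15 ± 0.20 (SE) under VEH and -0.82 ± 0.20 under HDM.

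Cct4, the delta subunit, varied most between libraries. Normal tissue held 121, 145 and 141 CPM under VEH and 124, 145 and 99.5 CPM under HDM, and tumours held 239, 204 and 237 CPM under HDM. Tumours under VEH held 272, 398 and 220 CPM, so that replicate 2 stood far above the other libraries of the gene. The log2 fold change was 1.13 ± 0.22 (SE) under VEH and 0.89 ± 0.22 under HDM, and under VEH it was 0.86 without tumour VEH replicate 2. The long non-coding gene Gm73696 shares 544 exon bases with Cct4 on the opposite strand. It had 17524 counts over the 12 libraries against 61929 for Cct4. Its log2 fold changes were 0.93 ± 0.20 (SE) under VEH and 0.88 ± 0.20 under HDM. Gm73696 was also highest in tumour VEH replicate 2, at 107 CPM against 67.5 and 65.0 CPM in the other tumours under VEH, as were the lung markers given above. Their part in the Cct4 value was not tested.

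The other 4 subunits lay between these. Tcp1, the alpha subunit, ranged from 147 to 204 CPM in normal libraries and from 362 to 413 CPM in tumours. Its log2 fold changes were 1.14 ± 0.12 (SE) and 1.27 ± 0.12 under VEH and HDM. Cct2, the beta subunit, ranged from 146 to 220 CPM and from 396 to 477 CPM, with 1.16 ± 0.13 and 1.44 ± 0.13. Cct3, the gamma subunit, ranged from 106 to 152 CPM and from 308 to 391 CPM, with 1.24 ± 0.14 and 1.50 ± 0.14. Cct6a, the zeta subunit made in most tissues, ranged from 115 to 172 CPM and from 268 to 338 CPM, with 0.89 ± 0.12 and 1.15 ± 0.12. Among these 4 the normal and tumour libraries were well apart.

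Other values moved with the tumour label, where 38.9% of all genes passed by edgeR under VEH and 51.9% under HDM. All 12 cell cycle genes listed (among them Ccnb1, Top2a, Bub1 and Aurkb, which act in mitosis) rose in both comparisons, with median log2 fold changes of 2.87 under VEH and 4.04 under HDM, and their summed level ranged from 147 to 349 CPM in normal libraries and from 960 to 1758 CPM in tumours. All 6 endothelial markers fell in both comparisons, from sums of 1059 to 2374 CPM to sums of 85.9 to 420 CPM. Of 7 alveolar markers, 2 fell by edgeR under VEH (6 by DESeq2, where 46.8% of all genes passed) and 7 under HDM. Their sums were 17371 to 42655 CPM in normal libraries and 98.9 to 8558 CPM in tumours. Of 5 airway markers, 0 passed by edgeR under VEH (3 by DESeq2) and 5 fell under HDM. Without tumour VEH replicate 2, 4 alveolar and 2 airway markers fell under VEH, beside 39.2% of all genes passing in either direction. The airway markers had sums of 24854 to 113510 CPM in normal libraries and 19.3 to 19655 CPM in tumours. Of 6 fibroblast markers, 2 rose and 1 fell under VEH and 2 rose and 2 fell under HDM, with sums of 833 to 3028 CPM in normal libraries and 4612 to 13311 CPM in tumours. Of 11 leukocyte markers, 2 rose and 4 fell under VEH and 1 rose and 3 fell under HDM (sums 2583 to 12598 CPM in normal libraries, 1328 to 3609 CPM in tumours), and of 6 cardiac and skeletal muscle markers 1 and 5 fell (sums 14.4 to 391 CPM and 0.0607 to 10.4 CPM). Leaving out each library in turn gave 0 to 4 leukocyte markers higher and 0 to 4 lower under VEH. It gave 2 to 7 alveolar markers lower under VEH and 4 to 7 under HDM. Of all genes, 24.7% to 39.2% passed in either direction in these fits under VEH and 42.5% to 51.0% under HDM. Outside the muscle list no marker was at 0 in any library, and within it Ckm was at 0 in 4 of the 6 tumours. The part of these differences in the subunit levels was not tested, and in bulk tissue fewer cells of a type and less RNA per cell cannot be told apart.

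Without the 4 libraries of conflicting prefixes all 8 subunits still passed as higher in both comparisons. Of all genes, 25.0% passed in either direction there under VEH and 37.9% under HDM. The subunits' log2 fold changes ran from 0.68 (Cct7) to 1.59 (Cct5) under VEH and from 0.73 (Cct7) to 1.73 (Cct8) under HDM. Normal VEH replicate 2 had the highest summed subunit level of the normal libraries, at 1410 CPM. Without it the VEH values ran from 0.50 (Cct7) to 1.46 (Cct5), and 8 of 8 passed, beside 37.8% of all genes.

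The subunits did not all keep the same proportions in tumours. Each subunit's log2 CPM was set against the mean log2 CPM of the other 7 in the same library. The level of this difference depends on gene length, and only its shift between groups does not. For Cct7 it was 0.36 ± 0.21 (SD, n = 3) in normal tissue under VEH and 0.41 ± 0.03 under HDM. In tumours it was -0.24 ± 0.12 under VEH and -0.27 ± 0.07 under HDM. The 6 normal libraries ranged from 0.13 to 0.52 and the 6 tumours from -0.32 to -0.11, so that every tumour lay below every normal library. No other subunit separated all tumours from all normal libraries on this measure.

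Cct8 went the other way, less fully. Its difference from the other 7 was -0.21 ± 0.07 in normal tissue and -0.04 ± 0.14 in tumours under VEH, and these overlapped, while under HDM it was -0.30 ± 0.13 in normal tissue and 0.15 ± 0.08 in tumours, without overlap. Cct3 and Cct2 were likewise higher without overlap in tumours under HDM, Cct5 was higher and Cct6a lower without overlap in tumours under VEH, and Tcp1 and Cct4 overlapped throughout. Cct4 spread the most, from -0.68 to 0.14 among the tumours, with the top value again in tumour VEH replicate 2. These differences are a description of the same tumour and normal values, and no test was made of them.

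**Figure D2:**
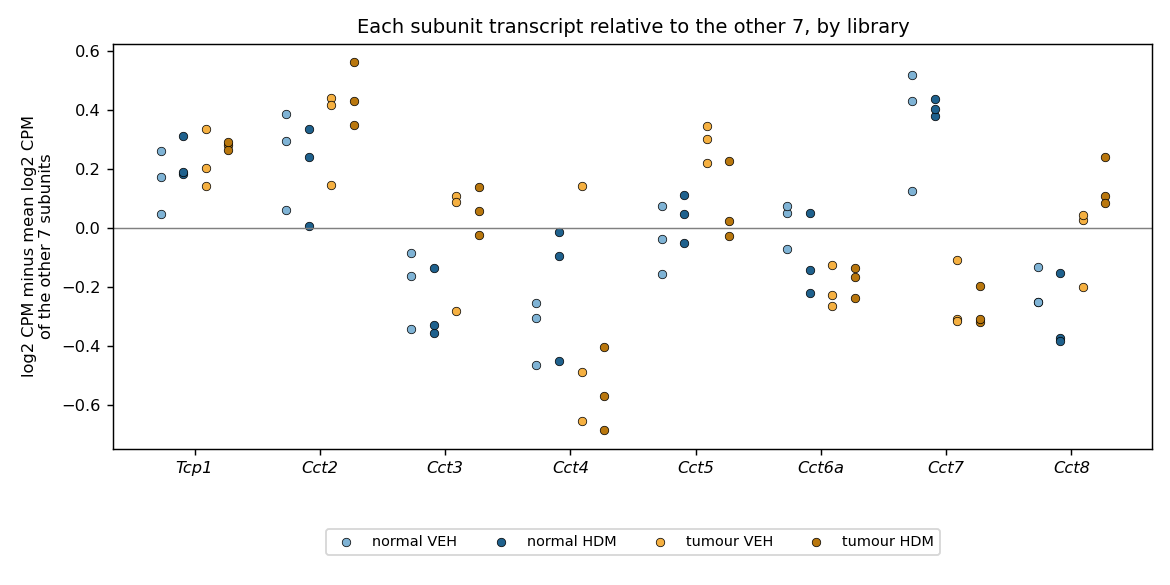
Each subunit's log2 CPM minus the mean log2 CPM of the other 7 subunits in the same library (vertical axis), by subunit and group; each point is 1 library. Every tumour point of Cct7 lies below every normal point (the position of 0 depends on gene length), while the tumour and normal points of Tcp1, Cct2, Cct3, Cct4, Cct5, Cct6a and Cct8 overlap.

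Levels of different subunits can be compared per length only, here as CPM per kilobase of the deposited gene length. In normal tissue under VEH the order on this scale was Cct2 (75.9 ± 9.78, SD, n = 3), Cct5 (58.9 ± 6.68), Cct6a (48.0 ± 1.03), Cct8 (47.4 ± 4.09), Tcp1 (36.5 ± 3.66), Cct4 (32.2 ± 3.12), Cct7 (30.5 ± 2.70) and Cct3 (23.1 ± 0.835). Libraries of the neighbours Cct6a and Cct8, Tcp1 and Cct4, and Cct4 and Cct7 overlapped, and those of the other neighbours did not. In normal tissue under HDM the same neighbours overlapped, with Cct8 (36.6 ± 2.45) and Cct6a (36.5 ± 3.19) trading places.

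In tumours the level per length again ran from Cct2 at the top, at 169 ± 15.8 under VEH and 162 ± 7.59 under HDM, but Cct7 was at the bottom, at 45.0 ± 5.29 and 39.6 ± 3.63. Between them came Cct5 (152 ± 6.63 and 120 ± 16.1), Cct8 (111 ± 8.10 and 112 ± 5.52), Cct6a (89.1 ± 8.78 and 81.2 ± 4.98), Tcp1 (80.3 ± 1.51 and 74.6 ± 4.19), Cct4 (70.6 ± 21.9 and 54.0 ± 4.62) and Cct3 (54.6 ± 6.51 and 51.4 ± 1.59). Under VEH only Cct5 with Cct8 and Cct8 with Cct6a were neighbours without overlap. Under HDM the overlapping neighbours were Cct5 with Cct8, Cct6a with Tcp1 and Cct4 with Cct3. Across the 12 libraries the highest subunit exceeded the lowest 2.72 to 4.49 times.

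This order depends on the length used. With the length of the longest coding transcript in GENCODE M39, Cct2 was again highest in every group, but Cct4 was lowest in every group and Cct7 was the second highest in normal tissue and the third in tumours. A gene's length is the same in every library, so Cct7, with the smallest tumour to normal ratio, loses share whatever the lengths. That both lengths give a lower share is therefore no further evidence. Of the summed level per length, Cct7 held 8.70% ± 1.19 (SD, n = 3) in normal tissue and 5.83% ± 0.524 in tumours under VEH with the deposited length. With the longest coding transcript it held 17.9% ± 2.20 and 12.6% ± 1.14.

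No CCT subunit passed the test between HDM and VEH in normal lung. Under HDM all 8 means were lower than under VEH in normal tissue, with log2 fold changes from -0.14 (Cct4) to -0.39 (Cct6a). Cct6a was at 165, 167 and 172 CPM under VEH and at 115, 133 and 135 CPM under HDM, without overlap, a log2 fold change of -0.39 ± 0.12 (SE). By edgeR 0 of 8 passed, with adjusted p from 0.864 to 1, where 0% of all genes passed, and DESeq2 called 0 of 8, where it called 0.194% of all genes. At unadjusted p below 0.05, 4 of 8 (Cct2, Cct3, Cct6a and Cct8) were counted, beside 5.54% of all genes, and 5 of 8 (these and Tcp1) lay wholly lower under HDM, beside 5.85% of all genes. The 8 genes share their libraries, so these are not separate observations. The summed level was 1345 ± 58.6 CPM (SD, n = 3) under VEH and 1101 ± 65.0 CPM under HDM. Without normal VEH replicate 2 the 8 values ran from -0.09 (Cct4) to -0.39 (Cct6a), and without the 4 libraries of conflicting prefixes from 0.04 (Cct4) to -0.44 (Cct6a).

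No CCT subunit passed between HDM and VEH in tumours either. The summed level of the subunits was 2861 ± 164 CPM (SD, n = 3) in tumours under VEH and 2575 ± 123 CPM under HDM. Log2 fold changes ran from -0.39 ± 0.21 (SE) for Cct4 to 0.01 ± 0.12 for Cct8. By edgeR 0 of 8 passed, where 0.0946% of all genes passed, and by DESeq2 0 of 8, where 5.91% of all genes passed. Cct5 alone had an unadjusted p below 0.05, at -0.34 ± 0.14 (SE, adjusted p = 0.268 by edgeR), beside 16.7% of all genes, and Cct5 alone lay wholly lower under HDM, beside 10.7% of all genes. Without tumour VEH replicate 2 the Cct4 value was -0.12.

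**Figure D3:**
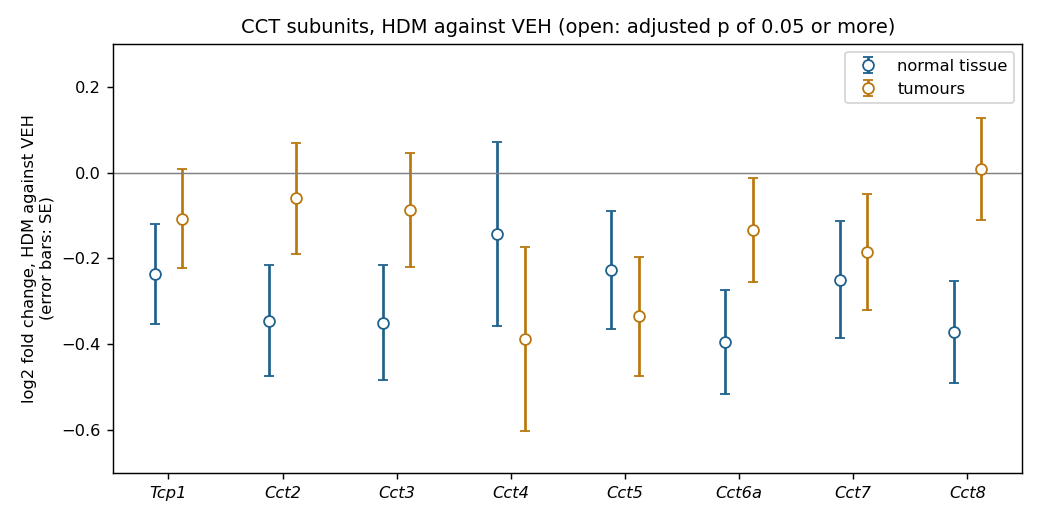
Log2 fold change of each subunit, HDM against VEH (vertical axis, error bars SE from edgeR), in normal tissue and in tumours. All 16 points are open, for adjusted p of 0.05 or more; all 8 normal points and 7 of the 8 tumour points lie below 0.

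Whether the tumour to normal difference depended on treatment was tested by the interaction. By edgeR 0 of 8 subunits passed, where 0% of all genes passed, and by DESeq2 0 of 8, where 1% of all genes passed. Cct8 had the largest value, 0.38 ± 0.17 (SE), with an unadjusted p of 0.0452 and an adjusted p of 0.526 by edgeR, and it alone fell below 0.05 unadjusted, beside 9.39% of all genes. The lowest value was that of Cct4, -0.24 ± 0.30, which was 0.03 without tumour VEH replicate 2. A larger tumour difference under HDM was thus not shown for any subunit.

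Over the 12 libraries the log2 levels of the 28 pairs of subunits had Pearson correlations from 0.865 to 0.995 (median 0.966). These points fall into tumours and normal tissue and share library size scaling. After each group's mean was subtracted the correlations ran from -0.53 to 0.80 (median 0.26).

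Among the genes that hand substrates to the complex, work with it as cofactors or take substrates over, Pfdn5 alone passed as lower. Beside the counts of this list and the lists below stand the shares of all genes tested. These were 38.9% under VEH (18.2% higher, 20.6% lower) and 51.9% under HDM (23% higher, 28.9% lower). No list was tested against these shares. Of the 6 prefoldin subunits, 2 rose and 1 fell in each comparison. Pfdn4 rose by 0.71 ± 0.23 (SE, log2) under VEH and 0.85 ± 0.24 under HDM, and Pfdn6 by 0.60 ± 0.18 and 0.53 ± 0.18. Pfdn5, also known as a binding partner of Myc, stood at 200, 177 and 150 CPM in normal tissue and 78.9, 130 and 87.2 CPM in tumours under VEH, a log2 fold change of -0.83 ± 0.19 (adjusted p = 0.00763 by edgeR), and under HDM it was -1.03 ± 0.19 (adjusted p = 0.0016). Under VEH the call of Pfdn5 was lost without tumour VEH replicate 1 (-0.59) or 3 (-0.66). Those of Pfdn4 and Pfdn6 were each lost without 3 of the 12 libraries, at values down to 0.56 and 0.39, and under HDM that of Pfdn6 without normal HDM replicate 2 (0.48). Pfdn1, Pfdn2 and Vbp1 did not pass, with values from 0.07 to 0.29. The median of the 6 was 0.16 under VEH and 0.26 under HDM.

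Of the 3 phosducin-like genes tested, Txndc9 alone passed, at 0.36 ± 0.13 (SE, log2) under VEH and 0.45 ± 0.13 under HDM, and its VEH call was lost without any 1 of 6 of the 12 libraries (0.31 to 0.44). Pdcl was at -0.37 and -0.17 and Pdcl3 at 0.08 and 0.33, and Pdcl2 had 0 counts. Of the 6 tubulin folding cofactors, 0 passed under VEH by edgeR, and 1 passed by DESeq2, where 46.8% of all genes passed. Under HDM 3 rose, namely Tbca (0.70 ± 0.13), Tbcd (0.76 ± 0.18) and Tbce (0.57 ± 0.21). The Tbce call was lost without any 1 of 4 libraries, and its value was 0.85 without normal HDM replicate 3. The difference between the treatments was not past the threshold for any of them (interaction adjusted p of 0.565, 0.715 and 0.657 by edgeR).

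**Figure D4:**
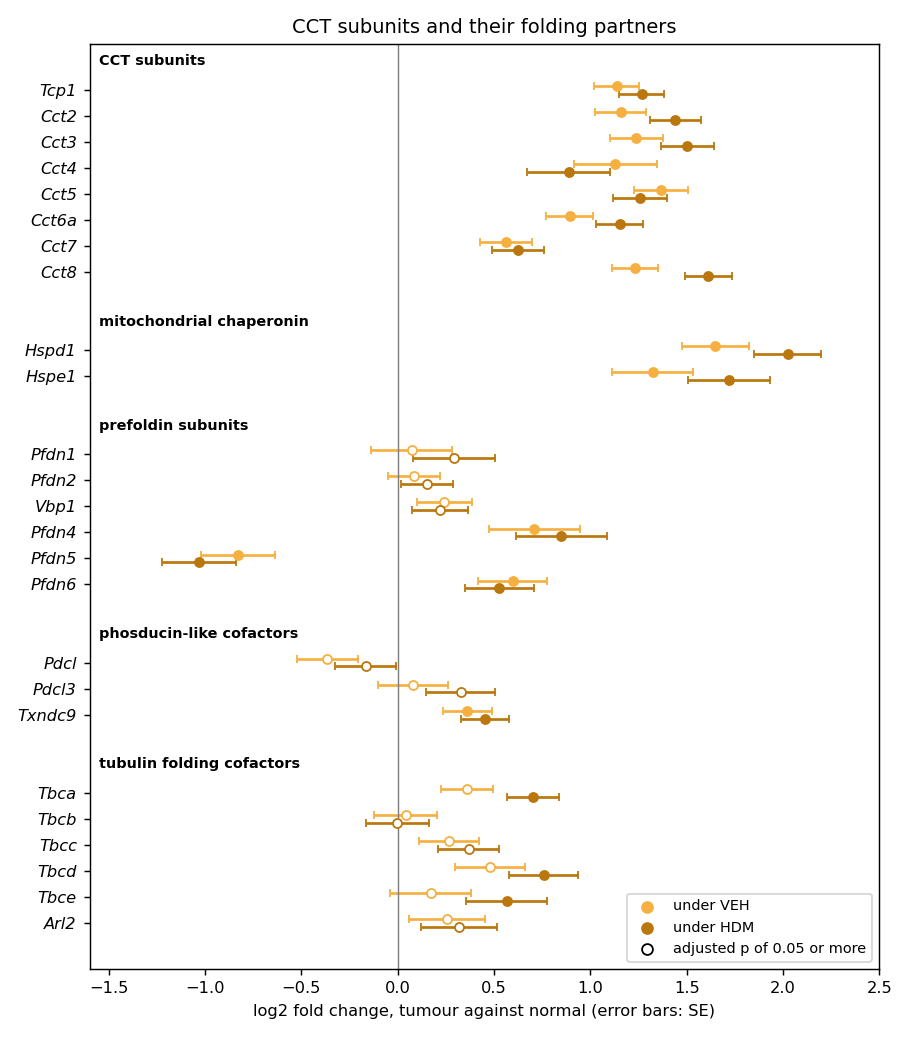
Log2 fold change, tumour against normal (horizontal axis, error bars SE from edgeR), of the 8 CCT subunits, the mitochondrial chaperonin, prefoldin, phosducin-like and tubulin folding cofactors under VEH and HDM. All 8 subunits and both mitochondrial chaperonin genes are to the right of 0, and Pfdn5 is at -0.83 and -1.03.

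Substrates of the complex were listed in 2 groups. Of 16 actin and tubulin genes, 9 rose and 1 fell under VEH, and 7 rose and 2 fell under HDM. Tubb6, a beta-tubulin, was at 27.5, 58.3 and 16.2 CPM in normal tissue and 275, 155 and 199 CPM in tumours under VEH, a log2 fold change of 2.62 ± 0.42 (SE), and 3.28 ± 0.43 under HDM. Tubb3 was at 2.35 ± 0.78 and 4.14 ± 0.85, its VEH call lost without any 1 of 4 libraries (1.86 to 2.64), and Tuba1c at 1.53 ± 0.27 and 1.75 ± 0.27. Acta2, the smooth muscle actin, was at -2.47 ± 1.09 under VEH (adjusted p = 0.0949 by edgeR) and fell under HDM, at -3.58 ± 1.14 (adjusted p = 0.0235 by edgeR), with no difference past the threshold between the treatments (interaction adjusted p = 0.816 by edgeR). Its HDM call was lost when any 1 of 3 libraries was left out, namely replicate 3 of normal HDM (-2.39) and replicates 2 (-3.16) and 3 (-3.12) of tumour HDM, and it ranged from 21.6 to 523 CPM among the normal libraries. Tubb2a, named after its values were seen, fell in both comparisons, at -0.68 and -1.39, and its VEH call was lost without any 1 of 10 of the 12 libraries (-0.68 to -0.43). The median of the 16 was 0.51 and 0.32.

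Of 16 beta-propeller and other substrates, 8 rose under VEH, and 9 rose and 1 fell under HDM. The largest values were those of cell division genes. Plk1, a mitotic kinase, was at 3.28 ± 0.60 (SE, log2) and 4.02 ± 0.62, the cyclin Ccne1 at 2.96 ± 0.58 and 3.79 ± 0.60, and Cdc20, which activates the ubiquitin ligase that ends mitosis, at 3.25 ± 0.51 and 3.21 ± 0.51. Gnb4, a G protein beta subunit, was at 1.71 ± 0.31 and 1.74 ± 0.31, while Gnb1, named after its values were seen, was the gene that fell under HDM (-0.38 ± 0.13), a call lost without any 1 of 8 of the 12 libraries (-0.39 to -0.22). The median of the 16 was 0.36 and 0.47.

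The mitochondrial chaperonin moved like the cytosolic one in direction. Hspd1, its ring subunit, was at 160, 177 and 217 CPM in normal tissue and 567, 574 and 595 CPM in tumours under VEH. Under HDM it was at 104, 133 and 132 CPM and at 552, 402 and 544 CPM. The groups did not overlap, and the log2 fold changes were 1.65 ± 0.17 (SE) and 2.02 ± 0.18. Hspe1, its lid, was at 1.32 ± 0.21 and 1.72 ± 0.21. Between HDM and VEH in normal tissue Hspd1 was at -0.59 and Hspe1 at -0.83, and neither passed (adjusted p of 0.864 and 0.801 by edgeR).

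Among 5 relatives of the subunits listed, Bbs12 alone passed. Cct6b, the copy of the zeta subunit known from testis, was at 0 to 0.819 CPM in the 12 libraries, and Cct8l1 had 6 counts in all 12 together. Mkks and Bbs10, which help assemble the BBSome of cilia, did not pass in either comparison. Bbs12, of the same group, was at 3.37, 4.91 and 3.66 CPM in normal tissue and 10.2, 7.10 and 7.80 CPM in tumours under VEH, and its log2 fold change was 1.07 ± 0.30 (SE) under VEH and 2.69 ± 0.32 under HDM (interaction 1.62 ± 0.43, adjusted p = 0.423 by edgeR). Its VEH call was lost without normal VEH replicate 1 (0.96) or 3 (1.01) or tumour VEH replicate 1 (1.00).

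Of 14 cytosolic heat shock chaperones, 5 rose and 1 fell under VEH, and 4 rose and 1 fell under HDM. Hsp90ab1, the constitutive Hsp90, was at 1.02 ± 0.25 (SE, log2) and 1.42 ± 0.25, and its kinase cochaperone Cdc37 at 1.19 ± 0.18 and 0.88 ± 0.18. The others that rose, named after their values were seen, were Ahsa1 in both, Hspa8 and Hspa4 under VEH and Bag3 under HDM. Hspb1, a small heat shock protein, stood at 115, 125 and 226 CPM in normal tissue and 7.31, 71.1 and 10.8 CPM in tumours under VEH. It fell in both comparisons, at -2.38 ± 0.79 and -3.65 ± 0.83. Its VEH value was -4.09 without tumour VEH replicate 2, and its call was lost without any 1 of 8 other libraries (-2.56 to -1.82). The calls of Hspa8 under VEH (5 of the 12 libraries, 0.57 to 0.87) and Bag3 under HDM (0.37 without normal HDM replicate 2) were lost in the same way. The stress-inducible Hspa1a was at -1.53 ± 1.02 and -1.91 ± 1.04, with no call. The median of the 14 was 0.42 and 0.41.

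Among 7 regulators that have been tied to chaperonin genes, Myc and Hsf1 rose in both comparisons. Myc was at 6.24, 115 and 8.76 CPM in normal tissue and 360, 388 and 264 CPM in tumours under VEH, so that normal VEH replicate 2 stood between the groups, and its log2 fold changes were 2.95 ± 0.94 (SE) and 4.23 ± 1.00. Under VEH it was 5.49 without normal VEH replicate 2, and its call was lost without any 1 of the other 5 VEH libraries (2.44 to 3.17). Hsf1, the heat shock factor, was at 0.79 ± 0.16 and 0.82 ± 0.16. Mycl fell in both, at -2.40 ± 0.65 and -4.72 ± 0.73, and Mycn fell under HDM, at -2.90 ± 1.01. The Mycl call under VEH was lost without normal VEH replicate 1 (-1.92), and the Mycn call without any 1 of 4 libraries (-2.70 to -2.26). Max, Hsf2 and Zfp143 did not pass.

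The 10 genes whose log2 levels were most like the mean of the 8 subunits over the 12 libraries were Rars1 (Pearson r of 0.992), Rae1 (0.991), Nop16 (0.989), Mak16 (0.989), Ccng1 (0.987), Prpf19 (0.987), Eif2s1 (0.987), Mrps18b (0.987), Nutf2 (0.987) and Fam136a (0.987). Rars1 charges arginine transfer RNA, Nop16 and Mak16 act in ribosome assembly, and Eif2s1 is a subunit of translation initiation factor eIF2. No functions are given here for the others, and whether the 10 share one was not tested. Of the 11003 protein-coding genes eligible by level, 12.65% had r above 0.9. After each group's mean was subtracted r ran from 0.13 (Nutf2) to 0.87 (Fam136a) among the 10. Leaving out 1 library kept 3 to 9 of the 10, with 3 kept without tumour VEH replicate 2.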

How the data were processed

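RNA-seq counts per gene of 12 libraries were analysed. The deposited table holds whole-number read counts that the authors made per Ensembl gene. Trim Galore, STAR, Subread and featureCounts and the build mm39 are named, per the submitters' processing notes, without versions. The annotation release, the strand setting and the choice between poly(A) selection and rRNA depletion are not given in the sources used here. Of 78298 identifiers, 78168 are in GENCODE M39 and the rest hold 0.143% of counts; the deposited lengths of all 8 subunits differ from M39's.

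Groups came from the labels. edgeR 4.0.16 (R 4.3.3) was fitted to all 12 libraries with 1 coefficient per group, TMM scaling and filterByExpr (minimum count 10), which kept 22190 genes; quasi-likelihood tests were two-sided, and Benjamini-Hochberg adjusted over all of them. SE is the log2 fold change divided by the root of F. Log2 CPM used a prior count of 2. DESeq2 1.42.0 and the settings in the closing section were alternatives. Pseudogenes were matched with BLAST+ 2.17.0 (at least 80% identity over 200 bases). The members and lists were chosen with earlier results of these data known. Named were all members, in each list the 4 genes with the largest mean tumour to normal change or the whole list, and the 10 protein-coding genes with average log2 CPM of at least 3 most correlated with the members. Intervals and p-values cover spread between libraries only. Protein sequences were not analysed here.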

Additional observations from a re-analysis of the deposited data

How the results depend on the processing

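All 8 subunits passed as higher in tumours under every one of the 21 alternatives in both comparisons. Of all genes, 16.8% to 46.8% passed under VEH and 25.0% to 55.9% under HDM, depending on the alternative. The subunits' highest adjusted p was 0.0447 by edgeR, for Cct7 under VEH. As above, nothing is read from the family's count. Between HDM and VEH 0 of 8 passed in either tissue under these 21. For the interaction 0 of 8 passed under the 20 that give one (a fit of only the groups compared gives none). Log2 fold changes that changed sign were small. For HDM against VEH in normal tissue, Cct4 was 0.0407 without the 4 libraries of conflicting prefixes. In tumours, Cct2 was 0.0288 and Cct3 0.0018 with library size only, and Cct8 was -0.0224 with DESeq2 size factors, -0.0223 by DESeq2, -0.0391 with no filter, -0.0302 when every library had to reach 10 counts, -0.0155 with a block for the name prefix and -0.0322 without the 4 libraries. Leaving out 1 library gave -0.12 to 0.0189 for Cct2, -0.17 to 0.0059 for Cct3 and -0.0341 to 0.0697 for Cct8 in tumours, and for the interaction -0.39 to 0.0257 for Cct4 and -0.0012 to 0.15 for Cct7. Library size only moved the median of all genes from -0.11 to 0.03 under VEH and from -0.08 to 0.10 under HDM.

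Counts of all genes called moved more. Under VEH they fell from 8624 to 5603 without the 4 libraries and to 5733 without tumour VEH replicate 1. Between treatments the counts were 0 in normal tissue (DESeq2 43), 21 in tumours (0 to 53 by edgeR, DESeq2 1311) and 0 for the interaction (0 to 6 by edgeR, 6 without tumour HDM replicate 3, DESeq2 222). Lists that moved by over 1.5 times were, under VEH, prefoldin (3 called, 0 to 4), phosducin-like (1, 0 to 1), tubulin cofactors (0, 0 to 2), actin and tubulin (10, 5 to 12, with 5 without normal VEH replicate 3), relatives (1, 0 to 1) and regulators (3, 1 to 3), and under HDM prefoldin (3, 1 to 4), phosducin-like (1, 1 to 2), tubulin cofactors (3, 2 to 5) and heat shock chaperones (5, 4 to 8). The cause was not tested.

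Whether the replicate numbers pair the libraries could not be told from correlations of deviations from the group means. Those of the 18 same-numbered pairs ran from -0.36 to 0.30, 8 of them over 0.1. Those of the 6 pairs with a shared name prefix ran from -0.22 to 0.18. Pairs sharing neither reached -0.53 and 0.54. With a replicate block 8 of 8 subunits passed in both tumour comparisons, 0 of 8 in the others, and 7830, 11001, 0, 1 and 0 of all genes in the 5 contrasts.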
